A study of Homo sapiens with 6 samples.

Results

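The 47 genes described here encode the machinery of autophagy, the enzymes and membrane proteins of the lysosome, the proton pump that acidifies it, and 3 transcription factors of the TFEB family. They were taken from the deposited gene table by symbol, and all 47 were found among its 16305 genes. The RNA came from Huh7-R cells, a pool (not a single clone) made resistant to sorafenib by long exposure of the human hepatocellular carcinoma cell line Huh7 to that kinase inhibitor. The pool was treated for 24 h with fostamatinib, an oral inhibitor of spleen tyrosine kinase (SYK), in 3 samples, or with the vehicle DMSO in 3 samples. The authors did not detect SYK protein in Huh7 cells, and the paper proposes that the drug acts through other targets. The labels give a concentration of 2 µM for both groups. Both groups were the same resistant pool, and parental Huh7 cells were not part of the comparison. According to the paper, resistant cells were maintained in sorafenib, which was taken out of the medium some days before each experiment. The question was how fostamatinib shifts the RNA of these genes relative to vehicle. Whether the replicates were separate cultures is not given in the sources used here, so the p-values measure the spread between these samples, which may be technical.

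Autophagy encloses cytoplasmic material in a double membrane, the autophagosome, which then fuses with a lysosome, where acid hydrolases degrade the contents. The ULK1 kinase complex starts the process, the lipid kinase complex around BECN1 marks the membrane, and a conjugation system attaches proteins of the ATG8 family (LC3 and GABARAP) to it. The vacuolar ATPase (V-ATPase) pumps protons into the lysosome, so that the hydrolases work at acid pH. TFEB, TFE3 and MITF are related transcription factors that bind E-box letters in promoters of lysosomal and autophagy genes, and phosphorylation by the kinase mTORC1 at the lysosome holds TFEB and TFE3 in the cytoplasm. The activity of these factors is therefore not read from their own RNA level.

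Because E-box letters are what this family of factors binds, promoters of some genes are shown here, chosen by these letters and by how the genes moved. All but that of ULK1 carry the letters CACGTG, which were in only 9 of the 37 promoter windows available for the 47 genes. Other genes that rose without the letters, such as GABARAPL2, GABARAPL1 and GLB1, are not shown. The stretches therefore do not tell how often the letters and a rise go together. Each stretch holds the 200 bases before the RefSeq start site on the gene's own strand, 5′ to 3′, with every CACGTG in capitals. The build is GRCh38.p14. CTSA and NEU1 rose most among the hydrolases with a sequence, GAA and MCOLN1 rose as well, LAMP1 has the most copies, ATG14 fell and ULK1, which rose, has no copy. The stretches are CTSA at chr20:45891135-45891334 (plus strand), NEU1 at chr6:31862822-31863021 (minus), GAA at chr17:80101381-80101580 (plus), MCOLN1 at chr19:7522424-7522623 (plus), LAMP1 at chr13:113297039-113297238 (plus), ATG14 at chr14:55411831-55412030 (minus) and ULK1 at chr12:131894422-131894621 (plus).
CTSA: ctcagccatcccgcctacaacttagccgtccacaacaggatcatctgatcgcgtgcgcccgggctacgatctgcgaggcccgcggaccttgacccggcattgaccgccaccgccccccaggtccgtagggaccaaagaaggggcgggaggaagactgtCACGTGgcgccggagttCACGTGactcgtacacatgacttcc
NEU1: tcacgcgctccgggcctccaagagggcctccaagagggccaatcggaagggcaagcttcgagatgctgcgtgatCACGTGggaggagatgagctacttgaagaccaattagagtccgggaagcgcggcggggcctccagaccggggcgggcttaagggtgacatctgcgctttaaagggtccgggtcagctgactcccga
GAA: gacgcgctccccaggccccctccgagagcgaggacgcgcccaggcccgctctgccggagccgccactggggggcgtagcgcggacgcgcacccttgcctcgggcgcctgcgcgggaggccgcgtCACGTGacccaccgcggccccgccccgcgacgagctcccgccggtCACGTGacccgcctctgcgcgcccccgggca
MCOLN1: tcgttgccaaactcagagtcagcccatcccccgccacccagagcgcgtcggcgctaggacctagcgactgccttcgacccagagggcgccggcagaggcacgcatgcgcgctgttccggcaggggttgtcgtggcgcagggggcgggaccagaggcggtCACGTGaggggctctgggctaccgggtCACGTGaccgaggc
LAMP1: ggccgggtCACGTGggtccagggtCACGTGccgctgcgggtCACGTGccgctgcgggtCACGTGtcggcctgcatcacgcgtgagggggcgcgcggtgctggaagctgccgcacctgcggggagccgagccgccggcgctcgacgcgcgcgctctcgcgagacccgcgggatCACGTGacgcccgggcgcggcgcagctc
ATG14: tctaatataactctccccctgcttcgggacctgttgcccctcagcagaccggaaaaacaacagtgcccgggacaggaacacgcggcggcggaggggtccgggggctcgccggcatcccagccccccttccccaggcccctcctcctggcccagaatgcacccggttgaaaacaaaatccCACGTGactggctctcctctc
ULK1: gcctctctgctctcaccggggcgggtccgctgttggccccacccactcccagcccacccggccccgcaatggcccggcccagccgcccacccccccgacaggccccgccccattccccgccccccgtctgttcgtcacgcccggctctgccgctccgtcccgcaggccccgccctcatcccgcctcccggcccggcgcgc
In CTSA the letters start 42 and 25 bases before the start site, in GAA 76 and 31, in MCOLN1 41 and 14, in NEU1 126 and in ATG14 21. LAMP1 holds 5 whole copies in the stretch shown.

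The libraries held 13303451 to 15272737 reads on the genes of the table, and each deposited value could be turned back into a whole number of reads. Levels are given as CPM (counts scaled to a common library size, adjusted by the authors' TMM factors) and changes as log2 fold changes, fostamatinib against DMSO. A gene was called changed at an adjusted p-value under 0.05 (limma over all 16305 genes with Benjamini-Hochberg adjustment, n = 3 per group). Values of a gene are shares of a library, so less RNA per cell and fewer cells that express a gene cannot be told apart. All 11 hepatocyte and hepatoma markers checked were present, at 9085 to 9462 summed CPM with DMSO and 9107 to 9285 with fostamatinib. All 11 were called changed, so the similar sums hide opposite moves. The keratins KRT8 and KRT18 fell by 0.56 and 0.86 on the log2 scale and the other 9 rose, by 0.21 (APOB) to 3.19 (APOA1), with HNF4A at 1.02. Of 5 leukocyte markers, CD14 and LYZ were listed, at 9.76 to 11.1 summed CPM against 9.60 to 11.7. Of 3 endothelial markers PECAM1 was listed, at 6.10 to 6.93 CPM against 8.72 to 9.89, and 3 of 4 stellate and fibroblast markers were listed, at 147.7 to 152.8 summed CPM against 191.2 to 198.3. Mitochondrially encoded genes took 6.15 to 6.67% of the reads with DMSO and 8.16 to 8.40% with fostamatinib. The part of these shifts in the results below was not tested. Without the mitochondrially encoded reads in the library size, 26 of the 47 genes were called higher and 4 lower.

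Of the 47 genes, 24 were called higher with fostamatinib, 5 were called lower and 18 did not pass the test. The 29 called genes are 61.7% of the 47, where 47.8% of all tested genes were called. The genes called higher are 51.1% of the 47 against 23.3% of all genes, and those called lower are 10.6% against 24.5%. Well-read genes are called more often, so the 32 members with a mean of at least 1000 reads were set beside all genes of that depth. Of these 32, 71.9% were called, against 70.2% of all such genes, while 62.5% were called higher, against 32.9%. The share called was thus near the background at this depth, and the share called higher was above it. The 47 were chosen with earlier results of these data known, so this excess is not independent evidence of a rise.

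The changes were small. The log2 fold changes of the 47 ran from -0.29 to 0.62 with a median of 0.14, while all tested genes had a median of 0.0015 and a range from the 25th to the 75th percentile of -0.27 to 0.27. A change of more than 1.5-fold was called for 15.7% of all tested genes and for 1 of the 47, CTSA. The reads of all 47 summed to 8123 to 8341 CPM in the DMSO samples and to 9345 to 9354 CPM in the fostamatinib samples, a rise of 14% in the mean. In 33 of the 47 genes the 3 fostamatinib values lay on one side of all 3 DMSO values, 25 higher and 8 lower, where 54.1% of all tested genes had no overlap in one direction or the other. All 29 called genes were among these 33, and MITF, NPC1 and CTSL (lower) and ATP6V1H (higher) had no overlap but did not pass the test.

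**Figure D1:**
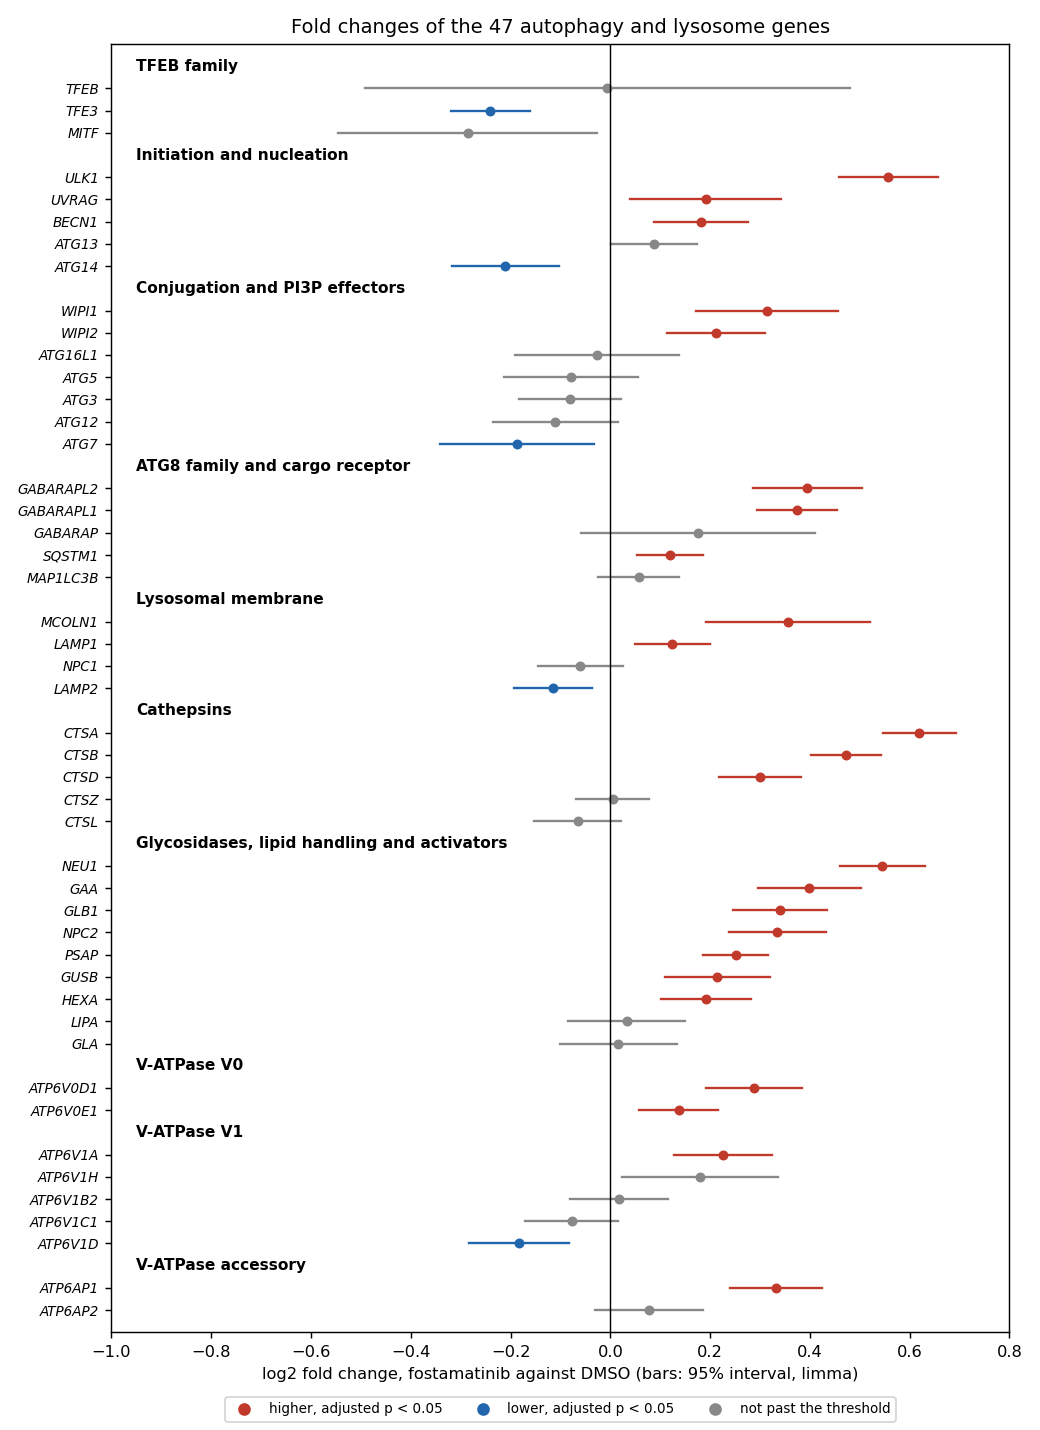
Log2 fold change (x axis, fostamatinib against DMSO) of each of the 47 genes, grouped by role, with bars for the 95% interval from limma and colours for the call. Most hydrolases lie to the right of 0, the TFEB family does not, and TFEB and MITF have wide bars.

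None of the 3 TFEB family genes among the 47 was called higher. TFE3, on the X chromosome, was by far the most abundant of them, with 297.4, 295 and 283 CPM in the DMSO samples and 248.8, 239.7 and 252 CPM in the fostamatinib samples. Every fostamatinib sample lay below every DMSO sample. TFE3 fell by 0.24 on the log2 scale (SE 0.039, adjusted p = 2.74e-06), so its level in CPM fell by 15.4%. MITF, best known as the factor of melanocytes, had 8.78, 8.39 and 8.61 CPM with DMSO and 6.03, 7.58 and 7.62 CPM with fostamatinib. The groups did not overlap, but with 126 reads on average in the DMSO samples the difference of -0.29 (SE 0.13) did not pass the test (adjusted p = 0.0629). TFEB, which gave the family its name, had 2.25, 2.16 and 2.22 CPM with DMSO against 2.40, 1.54 and 2.87 CPM with fostamatinib. The fostamatinib samples spread to both sides of the DMSO samples, on 22 to 38 reads each. The difference for TFEB was -0.0061 (SE 0.24, adjusted p = 0.987), and its 95% interval of -0.49 to 0.48 leaves changes of the size seen in CTSB undetectable at this depth.

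Among the 5 genes of initiation and nucleation, 3 rose, 1 fell and 1 did not pass the test. ULK1, the kinase that starts autophagosome formation and that mTORC1 restrains, showed the largest rise among the 17 autophagy genes of the 47. ULK1 had 96.6, 96.8 and 88.2 CPM with DMSO and 135.0, 134.2 and 145.2 CPM with fostamatinib. The groups were widely apart, and the log2 fold change was 0.56 (SE 0.048, adjusted p = 6.35e-12), a rise of 47.2%. ULK1 lies on chromosome 12 at 132379167 to 132407695 (GRCh37, the build of the authors' mapping). ATG14, which directs the BECN1 lipid kinase complex to the site of autophagosome formation, moved the other way. ATG14 had 75.25, 71.9 and 75.7 CPM with DMSO and 63.5, 61.9 and 67.3 CPM with fostamatinib, with every treated sample below every control. Its log2 fold change was -0.21 (SE 0.053, adjusted p = 1.14e-03). BECN1, the scaffold of that complex, rose by 0.18 (adjusted p = 1.26e-03). UVRAG, which replaces ATG14 in a second form of the complex that acts later, rose by 0.19 (adjusted p = 0.0331), a call that was lost without DMSO sample 1 (adjusted p = 0.0761) or 2 (0.0528) or fostamatinib sample 1 (0.084) or 2 (0.194), and without the mean trend in the variance prior (0.0794). ATG13, a subunit of the ULK1 complex, had a log2 fold change of 0.09 (adjusted p = 0.0918), and without DMSO sample 2 it passed the test (adjusted p = 0.0439), as it did with a library size free of mitochondrially encoded reads (0.0395).

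Among the 7 genes of conjugation and of the lipid effectors, the effectors rose and the conjugation genes did not. The effectors WIPI1 and WIPI2, which bind the phosphoinositide made by the BECN1 complex and bring in the conjugation machinery, both rose. WIPI1 had 26.0, 24.8 and 24.1 CPM with DMSO and 31.3, 31.3 and 30.5 CPM with fostamatinib. WIPI2 had 91.6, 100.1 and 97.4 CPM against 109.3, 116 and 109.6 CPM. In both genes every treated sample was above every control. The log2 fold change was 0.31 for WIPI1 (SE 0.070, adjusted p = 3.17e-04) and 0.21 for WIPI2 (SE 0.048, adjusted p = 3.78e-04). None of the 5 conjugation genes rose. ATG7, the E1-like enzyme of the system, fell by 0.19 (adjusted p = 0.0416). ATG7 was called on 362 reads on average in the DMSO samples, and the call was lost without DMSO sample 1 (adjusted p = 0.0947) or 2 (0.116), or fostamatinib sample 1 (0.0826) or 2 (0.14), and with a library size free of mitochondrially encoded reads (0.0662). ATG3, the E2-like enzyme, and ATG5, ATG12 and ATG16L1, which form the complex that places ATG8 proteins on the membrane, had log2 fold changes of -0.08, -0.08, -0.11 and -0.03. None of these 4 passed the test, with adjusted p-values from 0.141 to 0.813, although ATG12 did without fostamatinib sample 2 (log2 fold change -0.19, adjusted p = 0.0179).

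Within the ATG8 family, the 2 GABARAP-like genes rose. GABARAPL1 had 176, 173.5 and 179 CPM with DMSO and 226, 229 and 230.0 CPM with fostamatinib. GABARAPL2 had 54.35, 57.5 and 57.1 CPM against 77.3, 72.8 and 72.0 CPM. The groups were clearly separate in both. The log2 fold change was 0.37 for GABARAPL1 (SE 0.039, adjusted p = 6.06e-10) and 0.39 for GABARAPL2 (SE 0.054, adjusted p = 1.31e-07). MAP1LC3B, which encodes the LC3 protein used as the standard marker of autophagosomes, had a log2 fold change of 0.06 with a 95% interval from -0.02 to 0.14 (adjusted p = 0.249). GABARAP itself had 0.18 (adjusted p = 0.219) on 131 reads on average in the DMSO samples, and 35.4% of its exon bases also lie in exons of another gene on the same strand. Per kilobase of transcript, GABARAPL1 and GABARAPL2 made up 58.8 ± 0.38% of the summed level of these 4 genes with DMSO and 64.0 ± 0.23% with fostamatinib (SD, n = 3). MAP1LC3B made up 38.6 ± 0.40% and 33.6 ± 0.39%. The part of GABARAP in these sums is uncertain because of its shared exon bases. SQSTM1, the cargo receptor p62 that is itself degraded by autophagy, rose by 0.12 (adjusted p = 2.71e-03), from 1343 ± 48.6 to 1458 ± 25.2 CPM. The call for SQSTM1 was lost when the variance prior had no mean trend (adjusted p = 0.104).

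**Figure D2:**
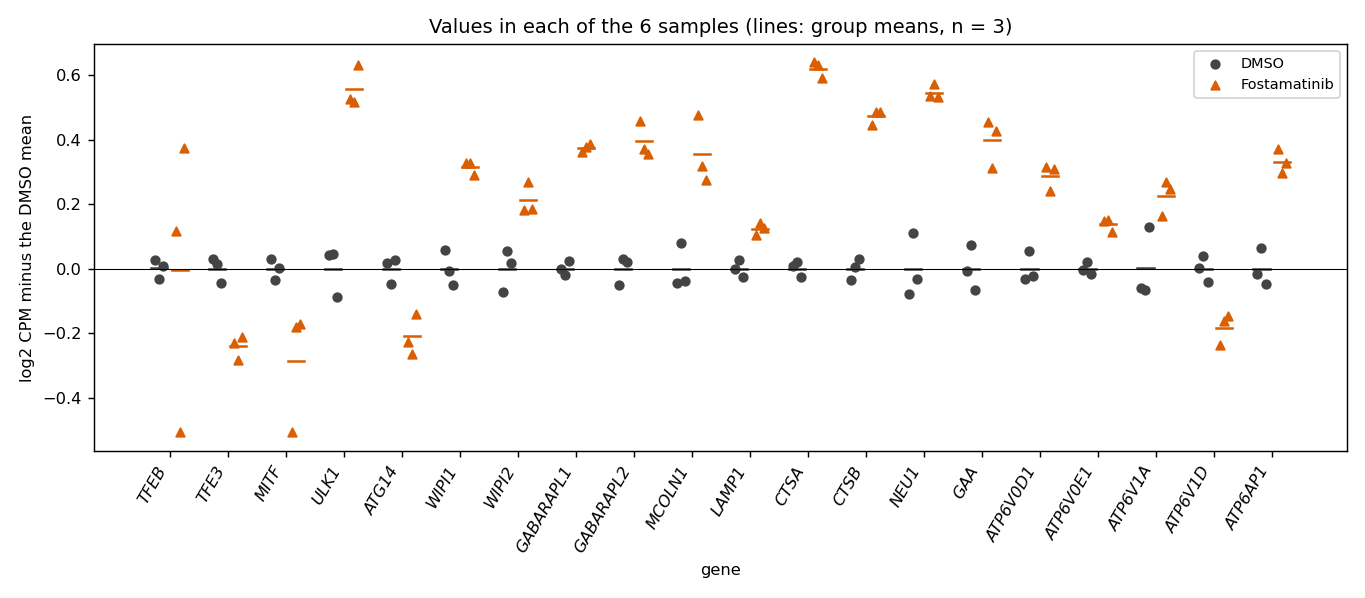
Log2 CPM minus the mean of the DMSO samples (y axis) for the genes with values of single samples (x axis), with 3 DMSO and 3 fostamatinib points each and lines at the group means. The treated points of CTSA, NEU1, ULK1 and GABARAPL1 lie wholly above the controls, those of TFE3 and ATG14 wholly below, and those of TFEB on both sides.

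Of the 14 lysosomal hydrolases and cofactors 10 were called higher, none was called lower and 4 did not pass the test. They included CTSA, the gene with the largest change of the 47. The cathepsins, the proteases of the lysosome, split into 3 that rose and 2 that did not pass. CTSA encodes protective protein, a carboxypeptidase that also holds together a complex with beta-galactosidase and neuraminidase 1. CTSA had 319, 322 and 312 CPM with DMSO and 495, 491 and 478 CPM with fostamatinib. The lowest treated sample was far above the highest control. CTSA rose from 317.6 ± 5.45 to 488.0 ± 8.70 CPM (SD, n = 3), a log2 fold change of 0.62 (SE 0.036, 95% interval 0.55 to 0.69, adjusted p = 1.12e-16). CTSA lies on chromosome 20 at 44518783 to 44527588 (GRCh37). CTSB, a cysteine protease, had 447, 460.2 and 468 CPM with DMSO and 625, 642 and 642.5 CPM with fostamatinib. Again the groups were apart, with a log2 fold change of 0.47 (SE 0.034, adjusted p = 6.40e-14). CTSD, the main aspartic protease, rose by 0.30 (adjusted p = 1.07e-07). CTSL and CTSZ, cysteine proteases like CTSB, had log2 fold changes of -0.07 (95% interval -0.15 to 0.02, adjusted p = 0.219) and 0.0050 (95% interval -0.07 to 0.08, adjusted p = 0.923). On 2027 and 5105 reads on average in the DMSO samples, neither interval reached the value of CTSD.

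The partners of CTSA rose as well. NEU1, the sialidase of that complex, had 223, 254 and 229.6 CPM with DMSO and 340.1, 349 and 339 CPM with fostamatinib. No treated sample came near the controls. The log2 fold change of NEU1 was 0.55 (SE 0.042, adjusted p = 2.59e-13), a rise of 45.9%. GLB1, the beta-galactosidase, rose by 0.34 (adjusted p = 1.21e-07). GAA, which breaks down glycogen in the lysosome and is deficient in Pompe disease, had 80.4, 85.05 and 77.2 CPM with DMSO and 110.9, 100.3 and 108.8 CPM with fostamatinib. The groups did not overlap, and the log2 fold change was 0.40 (SE 0.051, adjusted p = 4.02e-08). NPC2, which hands cholesterol to the membrane protein NPC1, rose by 0.33 (adjusted p = 3.57e-07). PSAP, the precursor of the saposins that present lipids to hydrolases, rose by 0.25 (adjusted p = 4.82e-08), from 1153 ± 39.97 to 1371 ± 2.55 CPM. GUSB, the beta-glucuronidase, and HEXA, the alpha subunit of beta-hexosaminidase, rose by 0.21 and 0.19 (adjusted p = 7.04e-04 and 4.87e-04). GLA, the alpha-galactosidase deficient in Fabry disease, had a log2 fold change of 0.02 (adjusted p = 0.846), and LIPA, the acid lipase that frees cholesterol from its esters, had 0.03 (adjusted p = 0.673). Their 95% intervals ran from -0.10 to 0.13 and from -0.09 to 0.15.

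The 4 lysosomal membrane genes went different ways, with 2 higher, 1 lower and 1 not past the test. MCOLN1, the calcium channel of the lysosome, had 18.5, 20.2 and 18.6 CPM with DMSO and 26.5, 23.8 and 23.1 CPM with fostamatinib. LAMP1, a main glycoprotein of the membrane, had 277, 282 and 272 CPM against 297.5, 306 and 302 CPM. The treated samples were above the controls in both, by a wider relative gap in MCOLN1. The log2 fold change was 0.36 for MCOLN1 (SE 0.081, adjusted p = 3.71e-04) and 0.12 for LAMP1 (SE 0.037, adjusted p = 5.77e-03). LAMP2, its paralogue, which has a role in autophagosome fusion, fell by 0.12 (adjusted p = 0.0123). The calls for LAMP1 and LAMP2 were lost without the mean trend in the variance prior (adjusted p = 0.0644 and 0.113), and that for LAMP2 without DMSO sample 3 (0.051) or fostamatinib sample 2 (0.0541). NPC1, the cholesterol exporter, had a log2 fold change of -0.06 (adjusted p = 0.255). The 4 genes together summed to 758.3 to 767.7 CPM with DMSO and to 758.3 to 766.7 CPM with fostamatinib.

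The V-ATPase has a membrane sector (V0) that carries protons and a peripheral sector (V1) that splits ATP. Of its 9 genes here, 4 rose, 1 fell and 4 did not pass the test. Both V0 genes rose. ATP6V0D1, the subunit that couples the sectors, had 92.3, 98.15 and 93.0 CPM with DMSO and 117.5, 111.6 and 117 CPM with fostamatinib. ATP6V0E1, a small membrane subunit, had 212, 215 and 209.9 CPM against 235.0, 236 and 229.5 CPM. Neither gene had overlapping groups. The log2 fold change was 0.29 for ATP6V0D1 (SE 0.047, adjusted p = 3.54e-06) and 0.14 for ATP6V0E1 (SE 0.039, adjusted p = 3.62e-03). In the V1 sector, ATP6V1A, which holds the catalytic site, and ATP6V1D, part of the rotating central stalk, moved in opposite directions. ATP6V1A had 133, 132 and 151 CPM with DMSO and 155, 167 and 164 CPM with fostamatinib. DMSO sample 3 came close to fostamatinib sample 1, and the log2 fold change was 0.23 (SE 0.048, adjusted p = 1.93e-04, or 0.0599 without the mean trend). ATP6V1D had 92.2, 94.7 and 89.5 CPM with DMSO and 78.1, 82.3 and 83.2 CPM with fostamatinib. The treated samples were lower throughout, with a log2 fold change of -0.18 (SE 0.049, adjusted p = 2.32e-03).

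The other 3 V1 genes did not pass the test. ATP6V1B2, the partner of ATP6V1A in the catalytic ring, had a log2 fold change of 0.02 (adjusted p = 0.799), and ATP6V1C1, of a peripheral stalk, had -0.08 (adjusted p = 0.167). ATP6V1H, which regulates the enzyme, had 0.18 (adjusted p = 0.0522). It passed the test without DMSO sample 3 (adjusted p = 0.0494) or fostamatinib sample 1 (0.0241), and also with the replicate number as a block (0.0427), with median-ratio size factors (0.0475), with a library size free of mitochondrially encoded reads (0.0332) and with a minimum of 10 reads in every sample (0.0496). Of the accessory proteins, ATP6AP1 had 111.4, 118 and 109.1 CPM with DMSO and 145.8, 138.6 and 141.7 CPM with fostamatinib. The groups were separate, with a log2 fold change of 0.33 (SE 0.045, adjusted p = 1.38e-07). ATP6AP2, known also as the prorenin receptor, had 0.08 (adjusted p = 0.244), and 0.14 without DMSO sample 3 (adjusted p = 0.0207).

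Set side by side, the hydrolases and cofactors had the highest median change of the 3 families. Of the 17 autophagy genes 8 rose, 2 fell and 7 did not pass the test, with a median log2 fold change of 0.12. Of the 14 hydrolases and cofactors 10 rose and none fell, with a median of 0.28. Of the 9 V-ATPase genes 4 rose and 1 fell, with a median of 0.14. As shares, 47.1%, 71.4% and 44.4% of the 3 families rose. Of all tested genes 23.3% rose, and of those with a mean of at least 1000 reads 32.9%. Called in either direction were 58.8%, 71.4% and 55.6% of the families, against 47.8% of all tested genes and 70.2% of the well-read ones. Summed over its genes, the autophagy family went from 2550 to 2638 CPM with DMSO to 2829 to 2864 CPM with fostamatinib, a rise in the mean of 10.1%. SQSTM1 held the largest part of that sum, at 1343 ± 48.6 CPM with DMSO and 1458 ± 25.2 CPM with fostamatinib. The hydrolases went from 3480 to 3623 CPM to 4365 to 4393 CPM, or 23.9%. The V-ATPase genes went from 994.8 to 1032 CPM to 1085 to 1112 CPM, or 8.47%. In each family all 3 treated sums lay above all 3 control sums. The difference between families was not tested, since the genes of a family are not replicates of the treatment.

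Levels between genes were compared per kilobase of the canonical transcript. SQSTM1 (473 ± 17.1 CPM per kilobase with DMSO) and PSAP (419.5 ± 14.6) were the most abundant of the 47 in both groups. They were followed with DMSO by CTSZ (232 ± 3.06), CTSA (171 ± 2.93) and ATP6V0E1 (149.6 ± 1.89). With fostamatinib, CTSA (263 ± 4.68) stood above CTSZ (233 ± 2.32), so their order was exchanged. CTSB rose from rank 7 (122.8 ± 2.78) to rank 5 (170.5 ± 2.69), although with fostamatinib it differed from NPC2 (167.6 ± 9.70) and ATP6V0E1 (164.5 ± 2.38) by less than the spread of NPC2. TFE3 stood at rank 12 with DMSO (88.6 ± 2.41) and rank 15 with fostamatinib (75 ± 1.93). MITF (1.79 ± 0.041) and TFEB (0.948 ± 0.019) were the least abundant of the 47 with DMSO, and with fostamatinib they were so again. Of these 3 factors, TFE3 thus gave most of the RNA.

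**Figure D3:**
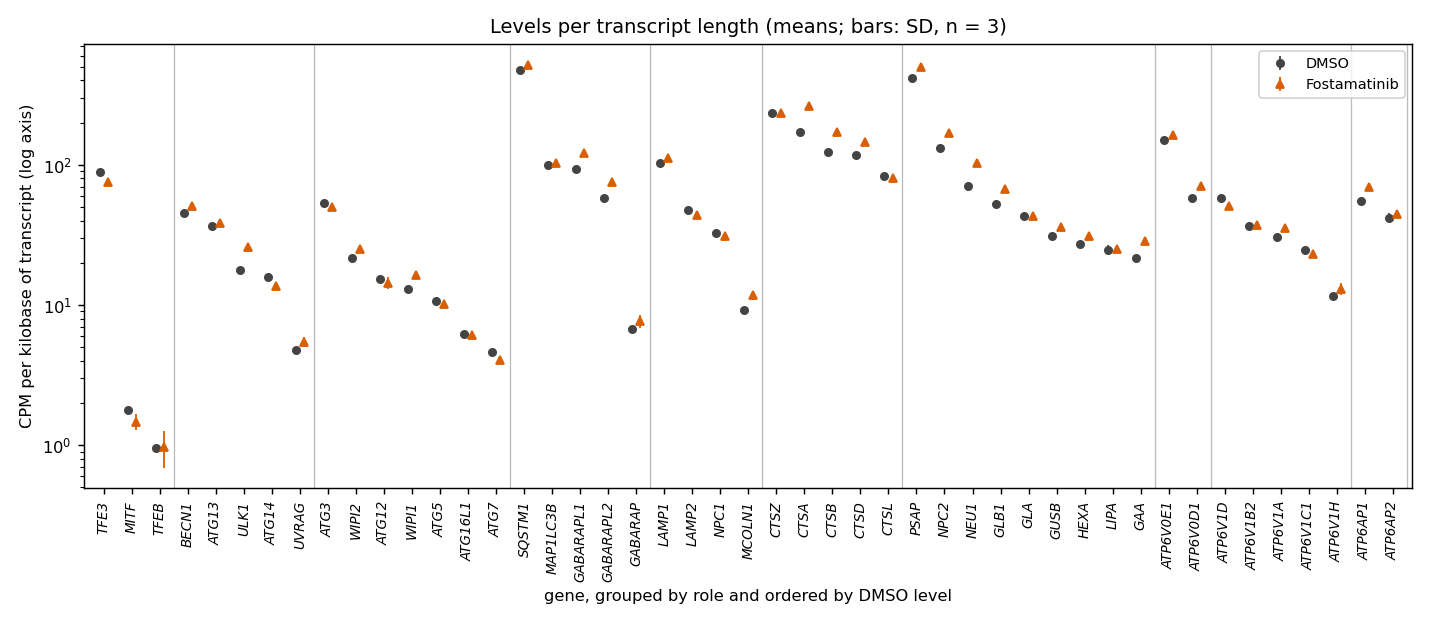
Level of each of the 47 genes per kilobase of transcript (CPM per kilobase, log axis), mean and SD of 3 samples per group. SQSTM1 and PSAP lead in both groups, CTSA passes CTSZ with fostamatinib, and TFEB and MITF are lowest.

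The promoter table held a window of 250 bases before to 50 after the start site for 37 of the 47 genes. A single start site per gene was used, which need not be the main one or the one active in these cells. The 10 without an entry were UVRAG, LAMP2, CTSB, HEXA, PSAP, ATP6V0E1, ATP6V1A, ATP6V1B2, ATP6V1C1 and ATP6V1H. The letters CACGTG, which read the same on both strands, were in 9 of the 37 windows (24.3%), against 10.1% of the 10466 windows of genes in the data and 7.43% of all 27305 windows. The longer TCACGTGA, which contains CACGTG, was in 6 of the 37 (16.2%), against 1.92% and 1.04%. By family, CACGTG was in 4 of 11 hydrolase and cofactor windows, 2 of 16 autophagy windows, 1 of 4 V-ATPase windows, 2 of 3 lysosomal membrane windows and none of 3 TFEB family windows. Of the 9 genes with CACGTG, 7 rose (LAMP1, MCOLN1, CTSA, CTSD, GAA, NEU1 and ATP6V0D1), ATG14 fell and ATG3 did not pass the test, and their median log2 fold change was 0.30. Of the 28 with a window but without these letters, 11 rose, 3 fell and 14 did not pass the test, with a median of 0.07. Over all genes with a window, 26.0% of those with CACGTG and 25.9% of those without were called higher. A match is a description of the letters in this window, and no binding was measured.

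A second list of 115 further autophagy, lysosome and nutrient sensing genes was examined in the same fit, and 110 of them were tested. Of these, 49 were called higher (44.6%) and 20 lower (18.2%), against 23.3% and 24.5% of all tested genes. These genes, too, were chosen with earlier results of these data known. Their median log2 fold change was 0.15. Autophagy genes outside the 47 counted 14 higher and 3 lower of 30, with a median of 0.19. ATG2A, which moves lipid to the growing autophagosome, rose by 0.68 (adjusted p = 6.23e-12), the cargo receptor NBR1 by 0.46 (4.10e-11) and TECPR1, a factor of autophagosome maturation, by 0.37 (2.93e-04). ATG101, a subunit of the ULK1 complex, fell by 0.43 (3.65e-07). CALCOCO2, a cargo receptor, and RAB7A, a GTPase of late endosomes, fell by 0.12 and 0.10 (0.0415 and 0.0191). The call for CALCOCO2 was lost without DMSO sample 1 (adjusted p = 0.206) or fostamatinib sample 1 (0.0962) or 3 (0.174). That for RAB7A was lost without DMSO sample 2 (0.0504) or fostamatinib sample 2 (0.0936) or 3 (0.0543). Both were also lost without the mean trend (0.134 and 0.103) and with a library size free of mitochondrially encoded reads (0.0864 and 0.0507), and the call for TECPR1 was lost without the mean trend (0.0594).

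Further hydrolases and activators counted 19 higher and 5 lower of 32 (59.4% and 15.6%, against 23.3% and 24.5% of all tested genes). Their median was 0.20, and some hydrolases outside the 47 did fall. TPP1, a tripeptidyl peptidase, rose by 0.64 (adjusted p = 2.18e-16), from 279 ± 8.54 to 435 ± 13.8 CPM. CTSC, the dipeptidyl peptidase that activates serine proteases, fell by 0.79 (adjusted p = 2.96e-17), from 167.8 ± 1.92 to 96.8 ± 1.66 CPM. IDS and ARSB, sulfatases that degrade glycosaminoglycans, fell by 0.61 and 0.31, while FUCA1, a fucosidase, and CTSK, a cysteine protease, rose by 0.60 and 0.79. CTSK did so at 3.26 ± 0.68 CPM with DMSO and 5.59 ± 0.35 CPM with fostamatinib. Lysosomal membrane and trafficking genes counted 3 higher and 2 lower of 14 (21.4% and 14.3%), with a median of -0.0047. The share higher was near that of all tested genes, and the share called, 35.7%, was below their 47.8%. GNPTG, a subunit of the enzyme that makes the mannose 6-phosphate tag, rose by 0.53 (adjusted p = 3.44e-06), SORT1 by 0.21 and CD63 by 0.17, while TMEM192 fell by 0.30. Of 9 further V-ATPase genes, 4 rose and 3 fell (44.4% and 33.3%), with a median of 0.03. ATP6V0A1 rose by 0.54 (adjusted p = 4.29e-11), ATP6V1F by 0.29 and ATP6V1E1 by 0.18. ATP6V1E2, ATP6V0A2 and ATP6V0B fell by 0.43, 0.28 and 0.18, and ATP6V1E2 was not called without DMSO sample 1 (adjusted p = 0.0645).

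Genes of nutrient sensing and TFEB control counted 9 higher and 7 lower of 25, with a median of 0.13. These are 36% and 28%, against 23.3% and 24.5% of all tested genes, so the share lower was near the background. TSC1 and TSC2, which together restrain mTORC1, rose by 0.41 and 0.43 (adjusted p = 3.60e-08 and 7.43e-08). RHEB, the GTPase that they switch off and that activates mTORC1, fell by 0.36 (adjusted p = 3.80e-08). DEPTOR, which binds mTOR and inhibits it, fell by 0.56 (adjusted p = 1.62e-05). PPP3R1 encodes the regulatory subunit of calcineurin, a phosphatase that takes phosphate off TFEB and so promotes its entry into the nucleus. PPP3R1 fell by 0.56 (adjusted p = 1.68e-08). What these moves do to mTORC1 or TFEB was not tested. RRAGB, a Rag GTPase, rose by 0.36 (adjusted p = 8.47e-03), a call lost without fostamatinib sample 2 (0.0607). TFEC, the fourth gene of the family, had 10, 17 and 12 reads with DMSO and 29, 37 and 29 with fostamatinib. It is named after its values were seen, since its reads were under the limit for naming. All treated samples had more reads than all controls, with a log2 fold change of 1.37 (SE 0.28, adjusted p = 1.18e-04).

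**Figure D4:**
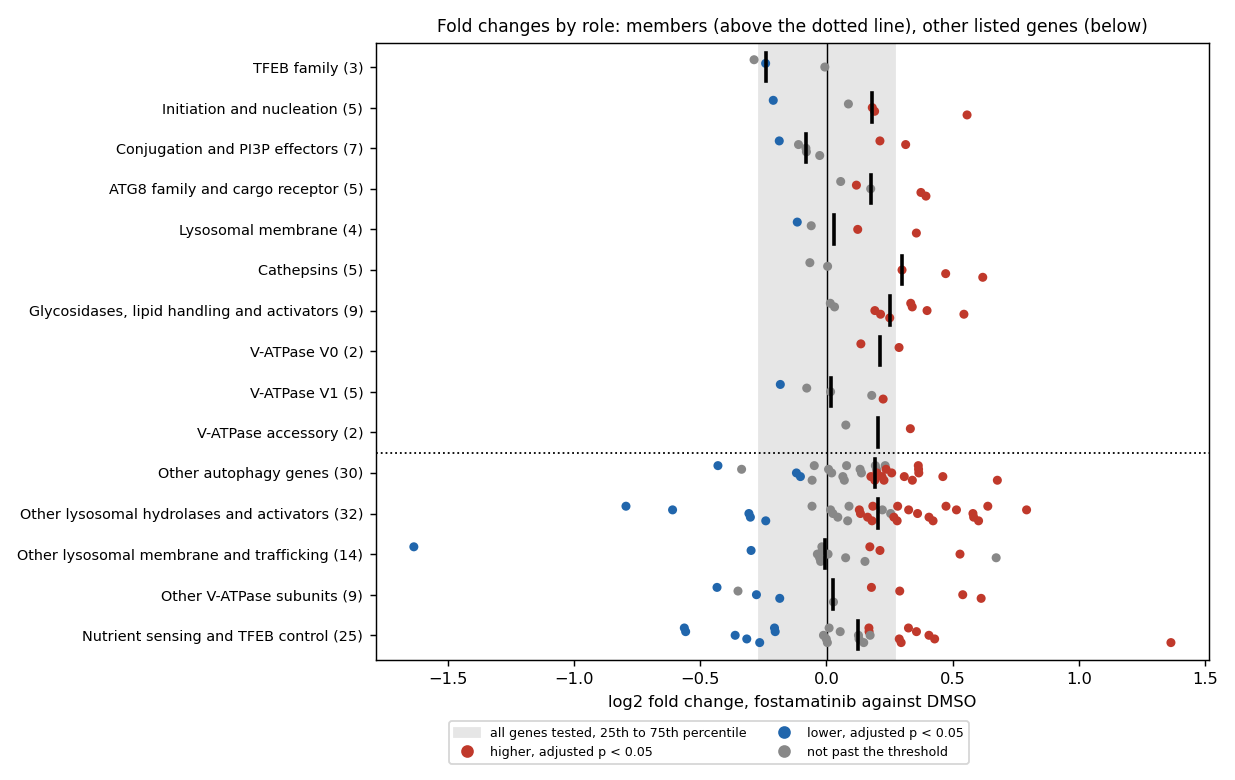
Log2 fold change (x axis) of each gene by role, the 47 genes above the dotted line and the further listed genes below it, with a bar at each median and the 25th to 75th percentile of all tested genes shaded. Cathepsins and glycosidases have the highest medians of the groups of the 47, and the further hydrolases reach to both sides.

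Some of the genes share exon bases with genes on the opposite strand, and the sources used here do not give the strand setting of the counting. Without strand, reads of such a pair cannot be told apart. For CTSA, 21.5% of the exon bases lie opposite PLTP and NEURL2, whose log2 fold changes were 0.06 and 1.0, with 1864 and 18.3 reads on average in the DMSO samples against 4649 for CTSA. For BECN1 (17.1%), the opposite gene PSME3 fell by 0.46, while BECN1 rose. For ATG7 (18.1%), the opposite gene VGLL4 fell by 0.28, and for CTSZ (31.7%) NELFCD fell by 0.28. ATG14 (20.8%) lies opposite FBXO34, with a log2 fold change of 0.03. WIPI1 (28.1%) lies opposite ARSG, which rose by 0.60 and had 22.7 reads on average in the DMSO samples. SQSTM1 (22.4%) lies opposite MGAT4B, which rose by 0.17, and MRNIP, which rose by 0.55. CTSD shares 27.3% of its exon bases with other genes on the same strand and 24.0% with genes on the opposite strand.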

How the data were processed

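Poly(A) RNA of 6 samples of Huh7-R cells was sequenced by the authors with a directional library kit. The authors aligned the reads with HISAT (hg19) and used featureCounts with GENCODE version 22 for the counts. A gene was removed where 2 of 3 samples or more had under 5 reads in each group, and libraries were scaled with TMM factors. The deposited values are log2 CPM, computed by the authors after adding 0.5 to each count, with 1 file per sample.

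Groups and replicate numbers came from the labels. The deposited log2 values of 16305 genes were tested in R 4.3.3 with limma 3.58.1, by lmFit and then eBayes with its trend option, with treatment as the only term and Benjamini-Hochberg adjustment over all genes. The script was tested on simulated data. Reads were recovered from the log2 values, and 100% came within 0.05 of a whole number. Each sample had between 13303451 and 15272737 reads on the genes that passed. Genes with few reads carry the largest errors, and 3 samples against 3 allow no two-sided p-value below 0.1 in an exact permutation test.

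The members and lists were chosen with earlier results of these data known. All 47 members are named. Values of single samples are given for the TFEB family, for the 2 called members of each group with the largest change, and for any called member with a log2 fold change of at least 0.58. Of the other lists, the 3 largest rises and falls among called genes that reached 50 reads on average in the higher group are named. TFEC is named outside this rule, after its values were seen.

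Gene positions, transcript lengths and exon overlaps are from GRCh37 with GENCODE version 44 mapped to it, which differs from the authors' version. Promoters are from RefSeq (GRCh38.p14) and were matched by symbol. The alternatives were limma-voom on the recovered reads, no trend, other scalings, filters, added reads and thresholds, the replicate number as a block, and leaving out each sample. A library size without mitochondrially encoded genes was added after seeing the data. Same-numbered samples of the 2 groups did not deviate together (correlations -0.021 to 0.037, against -0.090 to 0.060 for different numbers). This cannot tell whether the samples were paired, since paired samples need not share a deviation. Python 3.11.15 was used for the tables (pandas 2.3.3, numpy 2.4.6, scipy 1.17.1) and figures (matplotlib 3.10.9).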

Additional observations from a re-analysis of the deposited data

How the results depend on the processing

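None of the 47 genes changed direction while called, under any alternative run. Leaving out 1 sample at a time gave 27 to 30 members called, 23 to 26 higher and 4 to 5 lower, with 7 to 8 autophagy genes, 10 hydrolases and cofactors and 4 to 6 V-ATPase genes higher. It gave 6958 to 7480 genes called over the whole table, 3306 to 3676 higher and 3634 to 3804 lower, and 60 to 67 of the further listed genes called, 42 to 48 higher and 18 to 20 lower. Without the mean trend 24 members were called, and a replicate block gave 30 called, 25 higher and 5 lower, the added one being ATP6V1H. The block changed no other call among the 47. Its fit had a median of 32610 total degrees of freedom, so its variances came almost wholly from the trend over all genes. The main fit had a median of 33.9, against 4 residual degrees of freedom, so its p-values also rest largely on variance pooled over genes. Without the mean trend the median was 5.32, and the adjusted p-values were 5.71e-04 for CTSA and 2.40e-03 for ULK1. At an adjusted p under 0.001, 1 member was called lower (TFE3), 5 autophagy genes were called higher, 13 of the further listed genes were called lower, and 4778 genes were called in all, 2223 higher and 2555 lower. With a change of more than 1.5-fold required as well, 1 member was called (1 higher, 0 lower), which was 1 of the hydrolases, with 0 autophagy and 0 V-ATPase genes higher. That limit left 9 of the further listed genes (6 higher, 3 lower) and 2562 genes in all (1269 higher, 1293 lower). Both thresholds admit fewer genes by construction. Under the 3 other scalings the median log2 fold change of all genes was between -0.0096 and 0.020. Depth limits TFEB, MITF and GABARAP, each under 200 reads in every sample.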
